A study of Homo sapiens with 6 samples.

Results

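The E2F transcription factors and the retinoblastoma (RB) pocket proteins are the switch that opens S phase. E2F proteins bind DNA, usually as dimers with a DP partner, and turn on or hold down the genes for DNA replication and nucleotide synthesis. The pocket proteins RB1 (pRB) and RBL1 (p107) bind E2F and hold its targets down until cyclin D with CDK4 or CDK6, and then cyclin E with CDK2, phosphorylate them. E2F1, E2F2 and E2F3 are known as activators, E2F4 and E2F5 as repressors that work with pocket proteins, E2F6 as a repressor that lacks the pocket protein binding site and acts with Polycomb proteins, and E2F7 and E2F8 as atypical repressors that need no DP partner. The 10 genes E2F1 to E2F8, RB1 and RBL1 were taken by name, and all 10 were found among the 22934 gene symbols of the table.

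The cells were PC-3, an established line grown out of a bone metastasis of prostate cancer. Both groups carried the pRetroX-Tet-On-Advanced retrovirus, whose rtTA transactivator switches on a Tight promoter in doxycycline (Dox), and both received Dox at 300 ng/ml for 4 hours. The tdTom group carried pRetroX-Tight-pPGK-tdTomato, which has no insert behind the Tight promoter, and the TTP-tdTom group carried pRetroX-Tight-TTP-pPGK-tdTomato, which adds tristetraprolin (TTP). TTP, the product of ZFP36, binds AU-rich elements in the 3′UTR of mRNAs and brings them to decay. RNA-Seq was made from 3 samples of each group, of G418-resistant cells sorted for tdTomato. The data hold 1 FPKM value per group and locus (fragments scaled to transcript length and to library size), so neither the spread between samples nor the fragments behind a value can be given, and no difference below has a replicate check. A ratio below is TTP-tdTom FPKM over tdTom FPKM, on the log2 scale without a pseudocount, and it is read beside the same ratio over the 13005 gene symbols that reached 1 FPKM in either group and were above 0 in both. The labels do not say whether the samples of a group came from separate cultures.

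The gene behind the induction was examined first. ZFP36, on chr19:39897487-39900052 of GRCh37, had an FPKM of 5.56 in tdTom cells and 5.54 in TTP-tdTom cells, so its locus did not separate the groups, and TTP-tdTom is used below as the label of a group. Whether fragments of the transgene were counted there was not tested. By immunoblot the authors detected TTP protein in such TTP-tdTom cells by 4 hours of Dox. Their qRT-PCR, after a longer Dox treatment, found induced TTP mRNA. Of the epithelial markers, EPCAM, KRT8, KRT18 and KRT19 stood at 15.1 FPKM or more in each group, while CDH1 (E-cadherin) reached at most 0.390. The prostate luminal markers KLK2, KLK3 and TMPRSS2 reached at most 2.53, the leukocyte markers PTPRC and CD3E at most 0.733 and the endothelial markers PECAM1 and VWF at most 0.793. Of the fibroblast markers, COL1A1 stood at 4.34 and 4.56, DCN at 0.199 and 0.236, and COL1A2 was listed at 0 in tdTom cells and at 1.38 in TTP-tdTom cells.

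Members of the family differed in the share of their tdTom level that was measured in the TTP-tdTom group. RB1 had 32.3% of its tdTom level, and E2F7, RBL1 and the DP partner TFDP1 had about the same share as each other, between 46.3% and 52.6%. E2F3, E2F4 and E2F6 stood between 78.8% and 80.1%. In these cultures fewer cells in one phase of the cycle and less mRNA per cell cannot be told apart. Nor can an effect of TTP be told apart from a standing difference between the separately infected cell populations. Both groups received Dox, and no cells without Dox were sequenced. At the loci read, E2F2 was the single member with more mRNA under TTP-tdTom, at 153.4% of the tdTom value. Of the 10 members, 9 were lower in the TTP-tdTom group, beside 78.5% of the 13005 symbols, so a lower value was common to most genes. The members lower by at least 1.5-fold numbered 3 of 10 (RB1, RBL1 and E2F7), beside 22.8% of all symbols, and 1 of 10 was higher by that much (E2F2), beside 3.9%. At 2-fold RB1 alone was lower, beside 8.65%, and at a looser threshold of 0.322 on the log2 scale 8 members were lower, beside 40.4%. With all loci of a symbol summed, E2F1 turned to a log2 ratio of 0.62, so that 8 members were lower and 2 were higher by 1.5-fold, beside 7.28% of all symbols summed in the same way. By the order of their locus numbers, the loci added at E2F1 lie on the opposite strand. Sums over the loci of E2F1, here and below, may therefore hold more than its mRNA. With a pseudocount of 1 FPKM, 0 members were higher by 1.5-fold, beside 2.23%. Centring on the median of all symbols left 9 members lower and the counts past 1.5-fold at 3 and 1, while over all symbols 13.6% were then lower and 6.29% higher by 1.5-fold. The median log2 ratio was -0.47 over the members and -0.24 over all symbols.

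**Figure D1:**
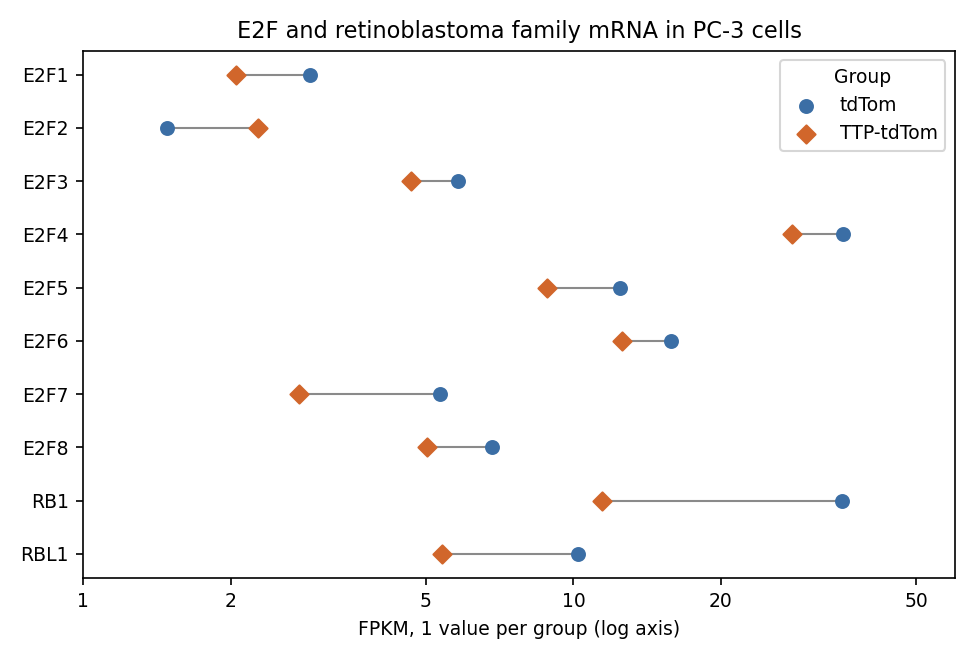
FPKM of the 10 members on a log axis, with a circle for the tdTom group and a diamond for the TTP-tdTom group, each 1 value per group, joined by a line. RB1 has the longest line, from 35.4 to 11.4, and E2F2 is the member whose diamond lies to the right of its circle.

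The sequences that TTP is known to bind were looked for in the transcripts of the members. TTP binds the heptamer TATTTAT, written here as DNA. It binds most tightly where a further T flanks each end, in the nonamer TTATTTATT. The longest 3′UTR of each member in GENCODE release 29 (GRCh38) was searched on the sense strand, with overlapping copies counted. At least 1 heptamer stood in 7 of the 10 members, against 36.0% of the 11848 symbols with a 3′UTR, and the nonamer stood in 2 members, against 9.45%. The following 30-base windows, read 5′ to 3′ on the mRNA strand with the heptamer in capitals, are shown for the 3 members furthest below their tdTom level and, to compare, for E2F1 and E2F2. Each window lies within 1 exon, in the 3′UTR. The windows are chr13:48480249-48480278 and chr13:48481156-48481185 for RB1, chr20:36998594-36998623 for RBL1, chr12:77023521-77023550 for E2F7, chr20:33676154-33676183 and chr20:33675996-33676025 for E2F1 and chr1:23509489-23509518 for E2F2. RB1 is on the plus strand and the others are on the minus strand.
RB1, copy 1: ttagtcattgtTATTTATacaagattgaaa
RB1, copy 2: tggcaattgtcTATTTATcttttatttttt
RBL1: gctttttaaaaTATTTATccaaaatgtagt
E2F7: tcctatggtgtTATTTATtttgttcctgaa
E2F1, copy 1: taatggagcgtTATTTATttatcgaggcct
E2F1, copy 3: cctgggtgattTATTTATtgggaaagtgag
E2F2: taatgcctttgTATTTATttcaggttgagt

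The E2F1 and E2F7 windows hold the nonamer, and in E2F1 a further heptamer, copy 2, overlaps the first. E2F1 had the most heptamers of the family, 3 in a 3′UTR of 1049 bases. RB1 held 2 in 1819 bases and E2F3 2 in 3285 bases. E2F2, E2F7, E2F8 and RBL1 held 1 each, and E2F4, E2F5 and E2F6 held 0. The number of copies did not order the members: RB1 and E2F3 share 2 copies at log2 ratios of -1.63 and -0.32, and E2F7 and E2F2 share 1 at -0.96 and 0.62. Over the 10 members Pearson's r between copies and the log2 ratio was -0.24 and Spearman's rho -0.28, given as a description. E2F1, with the most copies, entered at the -0.50 of the locus read. With its loci summed, which adds loci numbered as on the opposite strand, it had 0.62. The correlations were not computed with that value, so they hold for the locus read only. Over all symbols with a 3′UTR, the median log2 ratio was -0.17 for the 7579 without a heptamer, -0.40 for the 3406 with 1 to 2 copies -0.63 for the 665 with 3 to 4 and -0.63 again for the 198 with 5 or more. Those bins also differed in GC content, with medians of 51.5%, 43.6%, 40.5% and 39.0%, and in 3′UTR length, with medians of 915, 2321, 4073 and 6075 bases.

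RB1, the pocket protein that binds the activating E2F proteins, was the member furthest below its tdTom level. Its locus lies on chr13:48877883-49056268 of GRCh37, the build of all member loci below, and carries the RefSeq name NM_000321. The FPKM was 35.4 in tdTom cells and 11.4 in TTP-tdTom cells, a log2 ratio of -1.63, and 1.39% of the 13005 symbols had a lower ratio. In the tdTom group RB1 and E2F4 were level, at 0.997 RB1 for each E2F4, while in the TTP-tdTom group there was 0.408 RB1 for each E2F4. The E2F4 value is that of a locus which also carries the name of ELMO3. LPAR6, a receptor gene that shares the coordinates of the RB1 locus in the table, had an FPKM of 3.72 in tdTom cells and 2.99 in TTP-tdTom cells, a log2 ratio of -0.32. At LPAR6, far less abundant than RB1, the ratio was thus closer to level, with 1 value per group at each gene. Whether the interval as a whole differed between the groups was not tested.

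RBL1, the p107 pocket protein that binds mainly the repressor E2F proteins and is itself an E2F target, lies on chr20:35603277-35724465. Its FPKM was 10.2 in tdTom cells and 5.38 in TTP-tdTom cells, a log2 ratio of -0.93, with 10.6% of symbols lower. RBL2 (p130), the pocket protein of resting cells, is not one of the 10 and had an FPKM of 5.66 and 3.87, a log2 ratio of -0.55. All 3 pocket proteins were thus lower in the TTP-tdTom group, RBL2 by less than 1.5-fold. Summed over RB1 and RBL1, which FPKM allows because it is scaled to length, pocket protein mRNA was 45.6 in tdTom cells and 16.8 in TTP-tdTom cells, or 36.8% of it. Summed over the 8 E2F genes it was 86.1 and 66.1, or 76.8%. The pocket protein sum came to 0.530 of the E2F sum in the tdTom group and to 0.254 in the TTP-tdTom group. The E2F sum includes the E2F4 locus, which also carries the name of ELMO3. With RBL2 added, pocket protein mRNA was 51.3 in tdTom cells and 20.7 in TTP-tdTom cells, or 40.3%.

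At the loci read, the activators E2F1 and E2F2 were the members at the lowest level. E2F1, on chr20:32262323-32274210, had an FPKM of 2.90 in tdTom cells and 2.05 in TTP-tdTom cells, a log2 ratio of -0.50, less than the 1.5-fold step. The table names E2F1 at 2 further loci with the same coordinates. One of them was listed at 0 in tdTom cells and at 2.61 in TTP-tdTom cells, and the direction at E2F1 depended on whether these loci were summed. Their locus numbers place them on the strand opposite to the locus read, whose log2 ratio was -0.50. E2F2, on chr1:23832699-23857712, had 1.48 in tdTom cells and 2.27 in TTP-tdTom cells, a log2 ratio of 0.62. A lower ratio was held by 96.3% of symbols. E2F2 was the lowest of the 10 members in the tdTom group, and its value passed E2F1 in the TTP-tdTom group, where there was 1.11 E2F2 for each E2F1 against 0.510 in the tdTom group. With the loci of E2F1 summed, E2F2 stayed below E2F1 in both groups, at 0.444 and 0.443 for each E2F1. With a pseudocount of 1 FPKM, E2F2 no longer reached 1.5-fold (log2 ratio 0.40). E2F3, on chr6:20401930-20494276, had 5.82 and 4.66, a log2 ratio of -0.32. It was the most abundant activator at the loci read, but in the TTP-tdTom group E2F1 was above it, at 5.12, with its loci summed. The 3 activators summed to 10.2 in tdTom cells and 8.98 in TTP-tdTom cells, or 88.0%. With all loci of each symbol summed they came to 10.6 and 12.1, or 113.4%, so the direction of this sum also depended on the loci of E2F1.

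The repressors E2F4 and E2F5 were the larger pool. E2F4, the main E2F of resting and early G1 cells, lies on chr16:67225318-67237927 and had an FPKM of 35.5 in tdTom cells and 28.0 in TTP-tdTom cells, a log2 ratio of -0.34. Its locus also carries the name of the neighbouring gene ELMO3, an adaptor in cell migration, so its fragments cannot be told apart from those of ELMO3. E2F5, on chr8:86089619-86132643, had 12.4 and 8.85, a log2 ratio of -0.49. C8orf59, which shares those coordinates in the table, was far more abundant, at 112.5 and 107.7. E2F6, on chr2:11581561-11606510, had 15.8 and 12.6, a log2 ratio of -0.33. E2F4 and E2F6 lay close to the middle of all symbols, with 38.4% and 39.5% of them lower.

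The atypical repressors E2F7 and E2F8, which hold down E2F1 and other S phase genes late in the cell cycle, differed from each other. E2F7, on chr12:77414827-77459360, had an FPKM of 5.34 in tdTom cells and 2.75 in TTP-tdTom cells, a log2 ratio of -0.96, with 9.74% of symbols lower. E2F8, on chr11:19245610-19263202, had 6.83 and 5.02, a log2 ratio of -0.44, with 30.8% lower. Together they came to 12.2 and 7.77, or 63.9% of the tdTom sum.

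**Figure D2:**
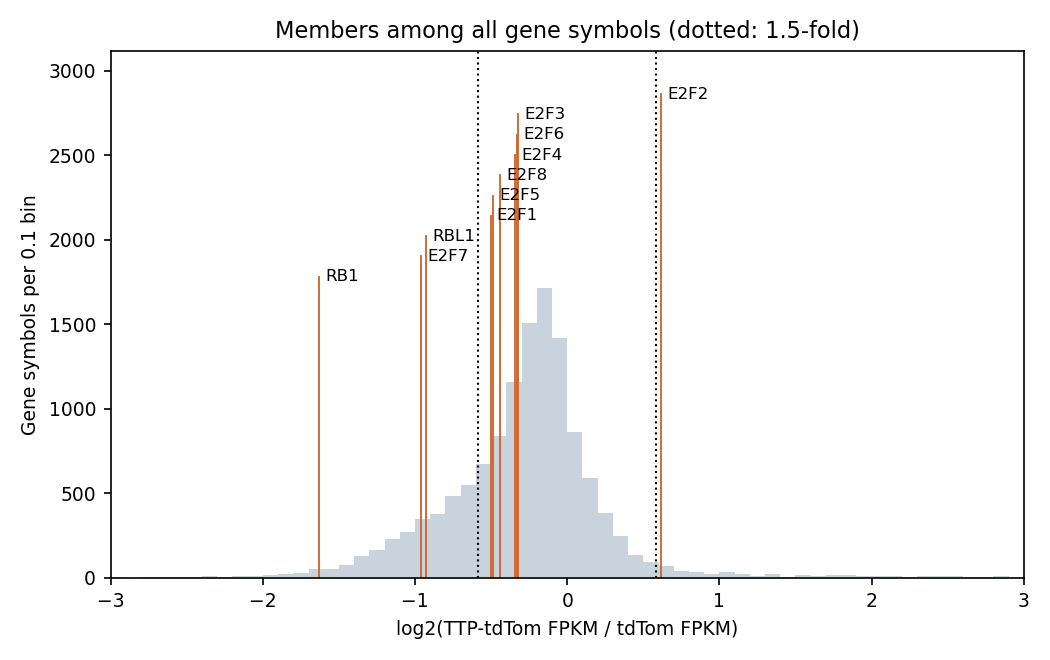
Histogram of the log2 ratio of TTP-tdTom over tdTom FPKM for 13005 gene symbols, with an orange line at each member and dotted lines at 1.5-fold; 94 symbols lie outside the plotted range. RB1, E2F7 and RBL1 lie left of the lower dotted line and E2F2 just right of the upper one.

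At the loci read, the order of the members by level in the tdTom group ran E2F4, RB1, E2F6, E2F5, RBL1, E2F8, E2F3, E2F7, E2F1 and E2F2 from the highest down. In the TTP-tdTom group RB1 and E2F6 exchanged places, and so did E2F1 and E2F2. With its loci summed, E2F1 stood at 3.33 in tdTom cells, above E2F2 alone, and at 5.12 in TTP-tdTom cells, above E2F2, E2F7, E2F3 and E2F8. RB1, with 11.4 and 1.56 at its loci in TTP-tdTom cells, stayed above the 12.6 of E2F6 when they were summed. The loci added at E2F1 and RB1 are, by their numbers, on the strand opposite to the locus read. Without a spread between samples it cannot be said which neighbours differ, and RB1 and E2F4 in the tdTom group (35.4 and 35.5) or E2F6 and RB1 in the TTP-tdTom group (12.6 and 11.4) were close. Between the most and the least abundant member the tdTom levels spanned 35.5 to 1.48.

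The base composition of the transcripts moved with the log2 ratio. RB1 had the transcript lowest in GC of the family, 37.3%, followed by RBL1 with 40.0% and E2F7 with 42.4%, and these are the 3 members lower by 1.5-fold. E2F2, higher by 1.5-fold, had 57.5%. E2F1 had the highest, 62.5%. Over the 10 members Pearson's r between GC content and the log2 ratio was 0.66 and Spearman's rho 0.54, and without RB1 and E2F2 they were 0.43 and 0.31. Over 11848 symbols they were 0.34 and 0.47, and the median log2 ratio ran from -0.75 in the lowest decile of GC content to -0.085 in the highest. The log2 ratio minus the median of the gene's own decile was -0.88 for RB1, -0.55 for E2F7, -0.42 for E2F1 and -0.36 for RBL1, while it was 0.0074 for E2F6 and 0.73 for E2F2. Altogether 8 of the 10 members were below their decile's median, while over all symbols a median puts about as many below as above. E2F1 is among these 8 at the locus read. With its loci summed, its log2 ratio of 0.62 lay above the -0.085 of its decile. The part of GC content, or of the libraries' base composition, in these differences was not tested.

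**Figure D3:**
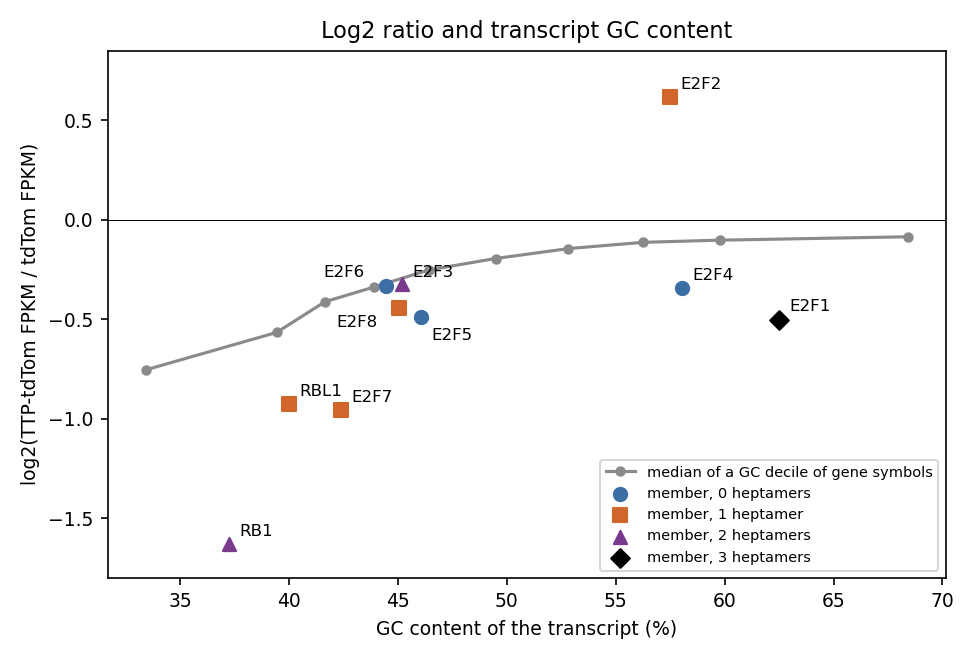
Log2 ratio of TTP-tdTom over tdTom FPKM against the GC content of the longest-3′UTR transcript for the 10 members, with marker shape and colour for the number of heptamers, and a grey line for the median of each GC decile of all symbols. RB1, RBL1 and E2F7 lie at low GC content and below the grey line, E2F2 above it.

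Several E2F genes are known to be E2F targets themselves, so the promoters listed for the members were searched for matches to the E2F site. A window of 300 bases around each start, most of it upstream (RefSeq, GRCh38.p14), was searched on both strands for 4 forms of the E2F site. They were TTTCCCG as the first form, TTTCGCG as the second form, TTTGCCG as the next and finally TTTGGCG, and overlapping matches were each counted. At least 1 of these stood in 8.67% of the 35116 promoter windows of the table, and 2 or more in 0.681%. E2F1 held 3, of which the first 2 overlap, and E2F2, E2F3, E2F6 and RBL1 held 2 each, although a further window of E2F3 held 0. The windows of E2F4 and E2F7 held 0. The window listed for RB1, which starts at 48476200 on chromosome 13, lies closer to the 3′UTR sites shown above than a gene start would, and it was not read. The 120 bases up to the start site are shown for the 3 activators and RBL1, on the strand of the gene and with the words in capitals; they lie at chr20:33686386-33686505 (minus strand) for E2F1, chr1:23531234-23531353 (minus) for E2F2, chr6:20401759-20401878 (plus) for E2F3 and chr20:37095998-37096117 (minus) for RBL1.
E2F1: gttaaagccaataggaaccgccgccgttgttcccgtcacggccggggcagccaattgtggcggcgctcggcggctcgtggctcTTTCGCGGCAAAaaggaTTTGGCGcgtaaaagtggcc
E2F2: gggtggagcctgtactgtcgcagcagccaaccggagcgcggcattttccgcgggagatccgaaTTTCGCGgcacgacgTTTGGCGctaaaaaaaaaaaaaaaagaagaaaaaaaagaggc
E2F3: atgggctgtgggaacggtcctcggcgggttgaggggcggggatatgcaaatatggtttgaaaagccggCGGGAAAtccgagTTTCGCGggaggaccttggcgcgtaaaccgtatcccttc
RBL1: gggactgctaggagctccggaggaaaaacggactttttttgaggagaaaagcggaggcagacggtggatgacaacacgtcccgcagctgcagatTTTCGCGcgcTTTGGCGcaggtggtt

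In all 4 promoters TTTCGCG stands within 57 bases of the start, and in E2F1, E2F2 and RBL1 TTTGGCG follows it downstream. The genes that share this pair did not share a direction: the ratio was -0.50 for E2F1, 0.62 for E2F2 and -0.93 for RBL1. With its loci summed E2F1 had 0.62, so that E2F1 and E2F2 were both higher and RBL1 was lower. Among the 13005 symbols, the 139 with 2 or more words had a median log2 ratio of -0.26 and the 7570 with 0 had -0.24. A word is a match of letters and not a measured binding site.

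The partners of the family are given next, from lists drawn up by role. TFDP1, which encodes DP1, the main dimerization partner of E2F1 to E2F6, had an FPKM of 52.4 in tdTom cells and 24.3 in TTP-tdTom cells, a log2 ratio of -1.11. TFDP2 (DP2) had 7.25 and 6.62, a ratio of -0.13, and TFDP3 stood at 0.0625 and 0.159. There were 7.23 TFDP1 for each TFDP2 in tdTom cells and 3.66 in TTP-tdTom cells. TFDP1 thus had more mRNA than any of the 10 members in the tdTom group and less than E2F4 in the TTP-tdTom group. Its 3′UTR of 1203 bases held 0 heptamers, and its log2 ratio minus the median of its GC decile was -0.86.

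RBL2 and MuvB form the DREAM complex with E2F4 or E2F5, which holds cell cycle genes down in resting cells, and MYBL2 and FOXM1 bind the same MuvB core later in the cycle. Of these 8 genes, 7 were lower in the TTP-tdTom group, beside 78.5% of all symbols, and 3 by at least 1.5-fold, beside 22.8%, with a median log2 ratio of -0.42. LIN52, the MuvB subunit that contacts the pocket protein, had 15.9 and 5.79, a ratio of -1.46. LIN54, the subunit that binds DNA, had a ratio of -0.88, and LIN9, at a locus that carries a further symbol, one of -1.15. LIN37 was higher, at 4.52 and 6.04, with a ratio of 0.42. FOXM1 and MYBL2 had ratios of -0.15 and -0.27.

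The cyclins and kinases that inactivate pocket proteins were read gene by gene. Of 9 cyclins and CDKs, 8 passed the minimum FPKM (CCND2 did not), 7 were lower, beside 78.5% of all symbols, and 4 were lower by at least 1.5-fold, beside 22.8%, with a median log2 ratio of -0.68. CCND1 (cyclin D1), the most abundant gene of these lists in the tdTom group, had 404.1 in tdTom cells and 208.4 in TTP-tdTom cells, a ratio of -0.96. Its partner CDK6 had 15.9 and 8.48, a ratio of -0.90, while CDK4 had 23.1 and 20.4, a ratio of -0.18. CCNE2 (cyclin E2) had a ratio of -1.17 and CCNE1 (cyclin E1) one of -0.020. CCNA2 (cyclin A2), which ends E2F1 binding to DNA in S phase, had 17.8 and 6.55, a ratio of -1.44, and CDK2 one of -0.46. CCND3 stood at 33.7 and 35.4.

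Of 7 CDK inhibitors, 6 passed the minimum FPKM, 5 were lower and 1 was lower by at least 1.5-fold, near the 78.5% and 22.8% of all symbols, with a median log2 ratio of -0.40. The one past it was CDKN1B (p27), with 5.00 and 3.01, a log2 ratio of -0.73. CDKN1A (p21) had 2.08 and 1.68, a ratio of -0.31. CDKN2A had 22.4 and 17.8, and CDKN2C, the inhibitor of CDK4 and CDK6 known as p18, had 14.6 and 10.6, a ratio of -0.47. CDKN2D, at a locus that carries a further symbol, stood at 43.4 and 43.5.

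E2F6 works in the Polycomb complex PRC1.6. All 10 of its partners on the list were lower in the TTP-tdTom group, beside 78.5% of all symbols, and 5 by at least 1.5-fold, beside 22.8%, with a median log2 ratio of -0.51, although E2F6 itself was at -0.33. YAF2 and RYBP, close relatives that hold the complex together, had ratios of -1.11 and -1.03. PCGF6, its defining RING partner, had -0.83, and CBX3, a reader of methylated histone H3, -0.78. WDR5 and L3MBTL2 stood near 0, at -0.0069 and -0.024.

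Of 10 co-repressors that act with pocket proteins, 9 were lower, beside 78.5% of all symbols, and 2 by at least 1.5-fold, a share no higher than the 22.8% of all symbols, with a median log2 ratio of -0.32. HDAC2, a histone deacetylase, had 30.8 and 15.0, a log2 ratio of -1.04, and ARID4B had one of -0.77. HDAC1, at -0.58, was just short of 1.5-fold. The lysine methyltransferase SUV39H1 was higher, at 5.22 and 6.48.

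Target genes of E2F were read from a list of 30 that act in DNA replication, nucleotide synthesis and cell cycle entry. Of these 28 were lower in the TTP-tdTom group, beside 78.5% of all symbols, and 9 by at least 1.5-fold, beside 22.8%. Their median log2 ratio was -0.26, against -0.24 over all symbols and -0.47 over the 10 members. Genes past 1.5-fold included CCNA2 (-1.44), CCNE2 (-1.17), SLBP (-1.04), GMNN (-0.95), CHEK1 (-0.84), RRM2 (-0.81), CDC25A (-0.71) and TYMS (-0.59). SLBP binds histone mRNA, GMNN (geminin) blocks origin licensing, and RRM2 and TYMS supply deoxynucleotides. The helicase genes MCM2 to MCM7, which license origins, lay between -0.42 (MCM4) and 0.068 (MCM3). The locus of MCM3 carries a further symbol. CDT1, the licensing factor that geminin blocks, was the highest of the 30 with a ratio of 0.18, and PCNA, the sliding clamp, had 391.9 and 349.9. BRCA1 and ORC1, which act in DNA repair and in origin recognition, were near level at -0.099 and -0.037.

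The genes that turn over E2F and RB proteins completed the lists. All 6 were lower, beside 78.5% of all symbols, and 2 by at least 1.5-fold, beside 22.8%, with a median log2 ratio of -0.23 that was close to the -0.24 of all symbols. MDM2 had 7.65 and 4.27, a ratio of -0.84, and SKP2, the ubiquitin ligase subunit that targets p27 and E2F1, had 141.7 and 91.7, a ratio of -0.63. CCNF (cyclin F) and FZR1 stood at -0.15 and -0.024.

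**Figure D4:**
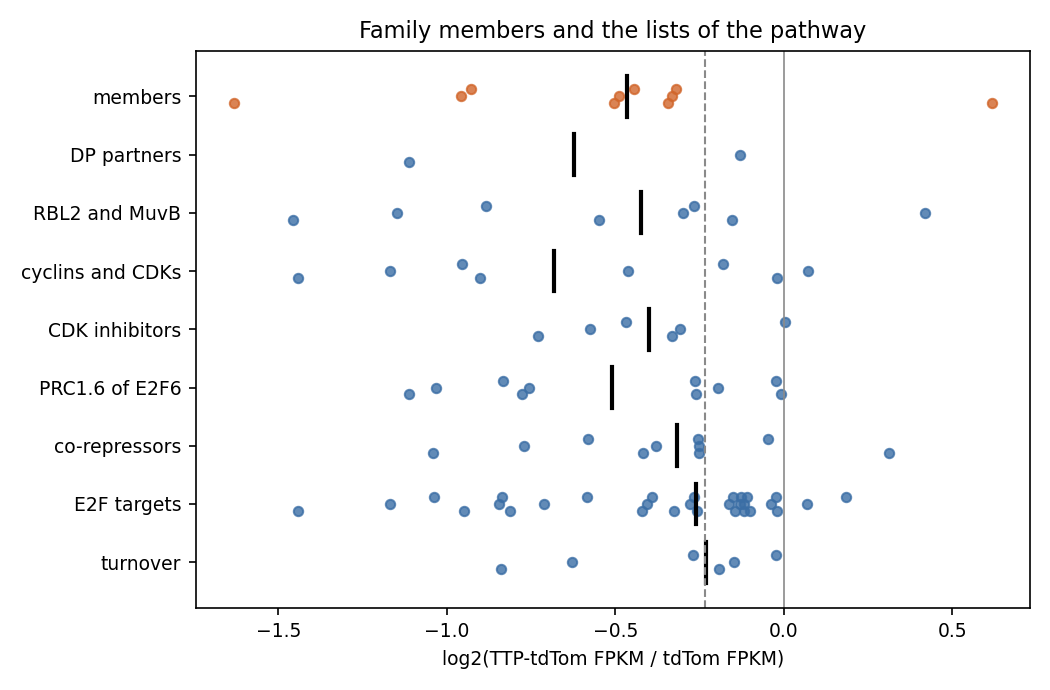
Log2 ratio of TTP-tdTom over tdTom FPKM for each measured gene of the 8 pathway lists (blue) and for the 10 members (orange), with a black bar at each median, a solid grey line at 0 and a dashed one at the median of all symbols, -0.24. The E2F targets run from -1.44 to 0.18 and the members from -1.63 to 0.62.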

How the data were processed

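RNA-Seq libraries, strand-specific and read in pairs, were made from 6 PC-3 samples, 3 per group. The authors aligned the reads with TopHat2 to Hs37D5 (GRCh37 with decoy sequence) and assembled and compared transcripts with Cufflinks, as their methods state, and the submitters' processing notes give TopHat2 2.0.13 and Cufflinks 2.2.1. The deposited table holds FPKM values that the authors computed as 1 value per group for each of 406165 loci, 30218 of them with a gene symbol. FPKM keeps no counts, so depth and counting intervals are unknown. The columns of the authors' own comparison (fold change, test statistic, p-value, q-value) were not used.

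For a symbol with several loci, the one carrying most RefSeq names was read, and among equals the one with the highest summed FPKM. Starts count from 1. The log2 ratio of the group values was computed without a pseudocount, a fold of 1.5 was the threshold, and no test between groups was run, since 1 value per group gives no spread. Correlations across genes are descriptions. The members and gene lists were chosen with earlier results of these data known. The genes named are the 10 members, ZFP36, and in each list those with the lowest and highest ratios or a role the text needs. The remaining genes of a list were named after their values were seen. 3′UTR and GC content came from protein-coding transcripts of GENCODE 29, matched by symbol for 91.1% of symbols, and promoters from RefSeq, matched for 8 of the members. The calculation was tested on simulated data. Python 3.11.15, numpy 2.4.6 and pandas 2.3.3 were used. The alternatives were pseudocounts, minimum FPKM, thresholds, centring, rescaling and other choices of locus. Some genes of the lists are counted but not reported by name here.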

Additional observations from a re-analysis of the deposited data

Results flagged for a closer look

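Of the loci that carry a member's name, 3 were left out of the comparison and had more FPKM under TTP-tdTom than under tdTom. At E2F1, one such locus was listed at 0 for tdTom and at 2.61 for TTP-tdTom, and another had 0.428 and 0.463. At RB1, a further locus with the same coordinates had 0.930 for tdTom and 1.56 for TTP-tdTom, against 35.4 and 11.4 at the locus that was read. The table gives no strand, but the locus numbers run along a chromosome and then start over at its beginning. E2F1 and RBL1, on the minus strand, are numbered in the later run, and RB1, on the plus strand, in the earlier one. The 3 loci left out stand in the other run than their gene, an order that places them on the opposite strand. What these loci hold was not tested.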

How the results depend on the processing

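No paired analysis was possible because the table holds 1 value per group, and for the same reason no fit left out a replicate. The members lower by at least 1.5-fold, 3 of 10, numbered 1 at a threshold of 2-fold and 8 at a threshold of 0.322 on the log2 scale, beside 8.65% and 40.4% of all symbols. The E2F targets lower by 1.5-fold, 9 of 30, numbered 3 at 2-fold and 13 at 0.322. The other pseudocounts, scalings and choices of locus gave 3 members and 6 to 9 targets. A minimum of 10 FPKM in either group kept 5 members, 2 of them lower by 1.5-fold. By tdTom level, 29.1% of symbols from 10 to 50 FPKM were lower by 1.5-fold, and 20.7% of those at 50 or more. The members' median log2 ratio of -0.47 was -0.23 after centring on the median of all symbols, and between -0.49 and -0.37 otherwise. E2F1 turned from -0.50 to 0.62 with its loci summed, where the loci added are numbered as on the opposite strand. Sums by role over all loci were added after seeing the data, and there the activators turned from 88.0% to 113.4% of tdTom, while pocket proteins were at 36.8% and 39.4%. Of 60 log2 ratios of single members under these alternatives, 44 moved by 0.1 or less, 15 by more with the same sign, and 1, that of E2F1, changed sign. Many of these outcomes were fixed beforehand, so the tally is no measure of stability. Centring shifts every member by the same amount, and so does rescaling. Other choices of locus cannot change a member that has 1 locus. Depth could not be read from FPKM values, so the precision of the members with an FPKM under 5 is unknown.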
